A study of Mus musculus with 16 samples.

Results

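The 4 Hox gene clusters were examined in macrophages that enter ischemic skeletal muscle. Peaks were taken where they overlapped 4 windows of the mouse genome build GRCm39: HoxA at chr6:52120000-52250000, HoxB at chr11:96070000-96270000, HoxC at chr15:102820000-102955000 and HoxD at chr2:74465000-74610000, 610 kb in all. They held 166 of the 320508 peaks deposited on the chromosomes used, of which 101 belonged to H3K27me3, 51 to H3K4me3, 10 to H3K27ac and 4 to H3K18la. The 38 Hox genes considered were 10 of HoxA, 10 of HoxB, 9 of HoxC and 9 of HoxD.

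The cells were CD45+CD11b+F4/80+CD64+ macrophages, sorted from digested calf muscle of C57BL6J wild type male mice aged 8 to 12 weeks after hind limb ischemia, which was induced by ligating and excising the femoral artery. They were taken at 2 or 4 days post injury (dpi), so every group had been injured and no uninjured or untreated group was compared. Histone marks were mapped by CUT&Tag, in which an antibody guides a transposase to a mark and the DNA freed there is sequenced. The repressive mark H3K27me3 (lysine 27 of histone H3 trimethylated) was profiled beside H3K4me3, the trimethylated lysine 4 of promoters, H3K27ac, the acetylated lysine 27 of active promoters and enhancers, and H3K18la, the lactylated lysine 18, with 2 libraries per mark and time point and 16 libraries in all. The labels do not say which libraries share mice, so p-values measure the spread between libraries, which may be technical. The study took the marks from shared samples, so libraries of different marks may not be independent as the tests between marks assume.

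Hox genes encode homeodomain transcription factors that set positional identity along the body axis and in the limb, and their order on the chromosome follows the order in which they are used from head to tail. In cells where they are silent, the Polycomb complex PRC2 writes H3K27me3 over whole clusters, whereas Trithorax group complexes write H3K4me3 at starts of genes in use or held ready. Blood cells are known to use members of HoxA and HoxB, among them Hoxa9 and Hoxb4, in stem and progenitor cells, and to turn them down as they mature.

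From the low-coordinate to the high-coordinate end, the members of HoxA run from Hoxa2, a patterning gene of the hindbrain and branchial arches, through Hoxa3, Hoxa4, Hoxa5, Hoxa6, Hoxa7, Hoxa9, Hoxa10 and Hoxa11 to Hoxa13, which patterns the distal limb. HoxB runs the other way, from Hoxb13, used at the caudal end of the body, through Hoxb9, Hoxb8, Hoxb7, Hoxb6, Hoxb5, Hoxb4, Hoxb3 and Hoxb2 to Hoxb1, which marks a hindbrain segment. HoxC runs from Hoxc13, a gene of hair and nail, through Hoxc12, Hoxc11, Hoxc10, Hoxc9, Hoxc8, Hoxc6 and Hoxc5 to Hoxc4. HoxD runs from Hoxd13, which with Hoxa13 patterns digits, through Hoxd12, Hoxd11, Hoxd10, Hoxd9, Hoxd8, Hoxd4 and Hoxd3 to Hoxd1. This order is that of the genes' 3′ ends in RefSeq on the older build GRCm38. There the listed spans of Hoxa3, Hoxb3 and Hoxd3 reach over neighbouring members, and those of Hoxd11 and Hoxd10 overlap. Gene starts on GRCm39 were not used here, so positions are given as distances in kb from the low-coordinate end of each window, and no peak is assigned to a single gene.

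The clusters also hold microRNA genes, which show how the 4 clusters copy one another. In RefSeq, Mir196b lies between Hoxa9 and Hoxa10, Mir196a-1 between Hoxb13 and Hoxb9, and Mir196a-2 between Hoxc10 and Hoxc9. Mir10a lies between Hoxb5 and Hoxb4, within the long span of Hoxb3. Mir615 lies within the span of Hoxc5, and Mir10b within those of Hoxd4 and Hoxd3. Their RefSeq mature sequences are shown 5′ to 3′ with the seed, bases 2 to 8, in capitals.
miR-10a-5p: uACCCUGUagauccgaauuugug
miR-10b-5p: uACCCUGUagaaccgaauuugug
miR-196a-5p: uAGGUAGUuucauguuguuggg
miR-196b-5p: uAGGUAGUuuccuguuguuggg
miR-615-3p: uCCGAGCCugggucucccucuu
The miR-10 pair of HoxB and HoxD share a seed, as do the miR-196 copies of HoxA, HoxB and HoxC, and both HoxB and HoxC genes of miR-196a give the same mature 5p sequence. The miR-615 seed is shared with neither family.

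CpG-rich promoters are the usual landing sites of both PRC2 and H3K4me3, so the promoters of the members were described by their CpG content. RefSeq promoters, 250 bases before and 50 after the first listed start, were matched for 22 of the 38 members: 9 of HoxA, 3 of HoxB, 1 of HoxC and 9 of HoxD. Their ratio of observed to expected CpG had a median of 0.59 and ran from 0.26 at Hoxd11 to 1.02 at Hoxa5, beside a median of 0.39 over 27025 promoters. A ratio of at least 0.6 was reached by 10 of the 22, against 36.5% of all promoters. Hoxa13 had the highest GC content of the members, 81%, and 45 CpG, and Hoxd13 followed with 74.3% and 37 CpG. At the other end, Hoxd4, Hoxd11 and Hoxa9 had 4 CpG each, and Hoxc4 had 9 with a ratio of 0.33.

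The promoters of Hoxa13 and Hoxd13, the CpG-rich ends of their clusters, are printed with that of Hoxc4, the matched member of the most widely covered cluster. They are RefSeq sequences of GRCm38.p6 and cover the 250 bases before the start, 5′ to 3′ on the gene's strand, with each CpG in capitals. Hoxa13 lies on the minus strand at chr6:52260881-52261130, Hoxc4 on the plus strand at chr15:103034145-103034394 and Hoxd13 on the plus strand at chr2:74667975-74668224, and these positions cannot be laid over the GRCm39 peaks.
Hoxa13: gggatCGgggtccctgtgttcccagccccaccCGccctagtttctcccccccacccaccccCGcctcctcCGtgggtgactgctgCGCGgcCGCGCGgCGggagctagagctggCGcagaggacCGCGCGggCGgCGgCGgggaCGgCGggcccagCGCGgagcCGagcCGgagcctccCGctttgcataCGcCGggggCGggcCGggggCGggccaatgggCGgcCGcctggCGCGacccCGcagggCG
Hoxd13: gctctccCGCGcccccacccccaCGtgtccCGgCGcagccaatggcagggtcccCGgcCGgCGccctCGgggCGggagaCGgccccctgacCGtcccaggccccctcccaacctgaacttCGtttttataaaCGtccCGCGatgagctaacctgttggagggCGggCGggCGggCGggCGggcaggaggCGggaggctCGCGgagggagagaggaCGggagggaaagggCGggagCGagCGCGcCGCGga
Hoxc4: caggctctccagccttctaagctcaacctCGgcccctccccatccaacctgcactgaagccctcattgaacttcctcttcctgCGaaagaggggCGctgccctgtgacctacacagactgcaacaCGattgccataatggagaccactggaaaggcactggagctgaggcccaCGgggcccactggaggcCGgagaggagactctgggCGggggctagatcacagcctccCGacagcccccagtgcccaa
In these 250 bases Hoxa13 has 35 CpG, Hoxd13 31 and Hoxc4 8. The motif TGATNNAT, a known binding pattern of Hox proteins with their Pbx partners, was searched on both strands of the 300 bases, where overlapping matches were counted once per promoter. It was found at 3 of the 22 members, Hoxa2, Hoxb8 and Hoxb1, and in 9.04% of all promoters.

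Some libraries stood apart before any comparison. H3K27ac 4 dpi replicate 1, the only one with its prefix in the description labels, had a median peak width of 4250 bp against 1218 to 1719 bp in the other H3K27ac lists. H3K4me3 4 dpi replicate 1 had wider peaks than the other H3K4me3 lists, with a median of 2558 bp against 1796 to 2033 bp. H3K18la 2 dpi replicate 1 had 27578 peaks where the other lists of that mark had 15190 to 17578. H3K27me3 lists covered 52.1 and 61.0 Mb at 2 dpi and 79.8 and 80.9 Mb at 4 dpi. The sequencing depth of a library cannot be read from its list.

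H3K27me3 covered most of the 4 clusters, and the other marks little. H3K27me3 peaks covered 72.0 and 75.5% of the 610 kb in the 2 dpi libraries and 78.0 and 75.4% in the 4 dpi libraries, a mean of 75.2% ± 2.45 (SD, n = 4). H3K4me3 covered 5.21% ± 2.39, H3K27ac 1.05% ± 0.509 and H3K18la 0.244% ± 0.487 (SD, n = 4 each). The lowest H3K27me3 library lay 63.3 percentage points above the highest H3K4me3 library.

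H3K27me3 exceeded H3K4me3 by 70.0 percentage points, H3K27ac by 74.2 and H3K18la by 75.0, each beyond the spread between libraries with no overlap (2-sided exact permutation p = 0.0286, adjusted p = 0.0286 over the 3 contrasts, the smallest this design allows). If the marks came from 4 matched sets, the smallest 2-sided p would be 0.125. Without the library that stands apart in each of the other marks, the differences were 71.2, 74.4 and 75.2 points. H3K27ac libraries carry other prefixes in their description labels than the rest. What a prefix stands for is not stated, and for that contrast mark and prefix cannot be told apart.

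The clusters differed in how much of their window H3K27me3 took. HoxC was covered almost whole, by 97.5% in both 2 dpi libraries and 99.4 and 99.5% at 4 dpi. HoxD followed with 82.7, 83.9, 85.3 and 79.5% in the 2 dpi and then the 4 dpi replicates, HoxA with 61.8, 68.5, 68.7 and 64.4%, and HoxB with 53.8, 59.2, 64.3 and 63.2%. In every library the order was HoxC, HoxD, HoxA, HoxB, though over all libraries the ranges of HoxA and HoxB overlapped (means 65.9% ± 3.37 and 60.2% ± 4.77, SD, n = 4). The windows were drawn with different margins around the genes, and part of the order may rest on that, which was not tested.

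H3K4me3 coverage was low in every cluster and less even between libraries. HoxB had 3.16 and 3.93% at 2 dpi and 5.46 and 3.08% at 4 dpi, and HoxC 2.49 and 2.80% at 2 dpi and 5.38 and 2.45% at 4 dpi. In HoxD it ran from 1.14% in 4 dpi replicate 2 to 9.99% in 4 dpi replicate 1, so the replicates of 1 time point spanned all other HoxD values. H3K27ac was found in HoxB in 4 of 4 libraries, at 2.61 and 1.02% at 2 dpi and 4.90 and 1.53% at 4 dpi, and in HoxA at 2.23 and 0.729% at 2 dpi and 0 and 1.29% at 4 dpi.

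**Figure D1:**
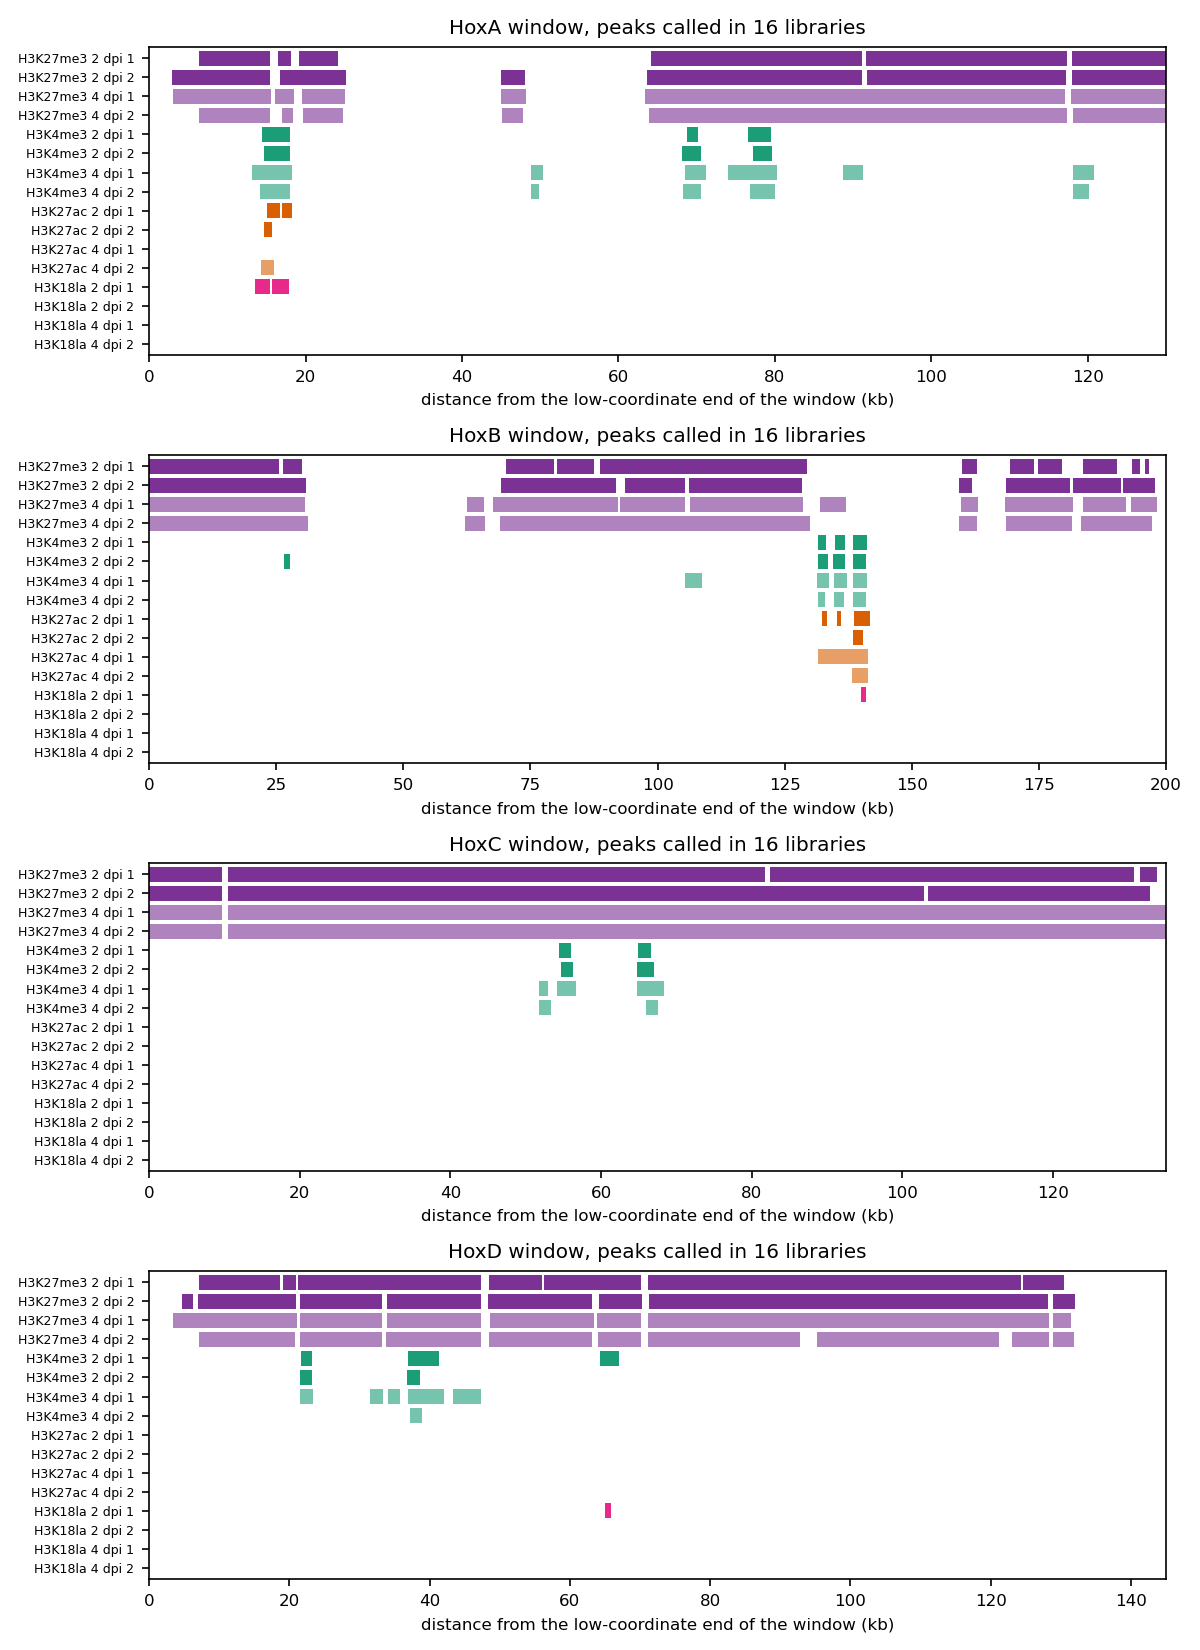
Peaks called in each of the 16 libraries along the HoxA, HoxB, HoxC and HoxD windows, as bars over the distance from the low-coordinate end of the window in kb. Rows give mark, dpi and replicate, with 4 dpi in a paler tone, and H3K27me3 fills the HoxC window by 97.5 to 99.5% while HoxA and HoxB have wide gaps.

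**Figure D2:**
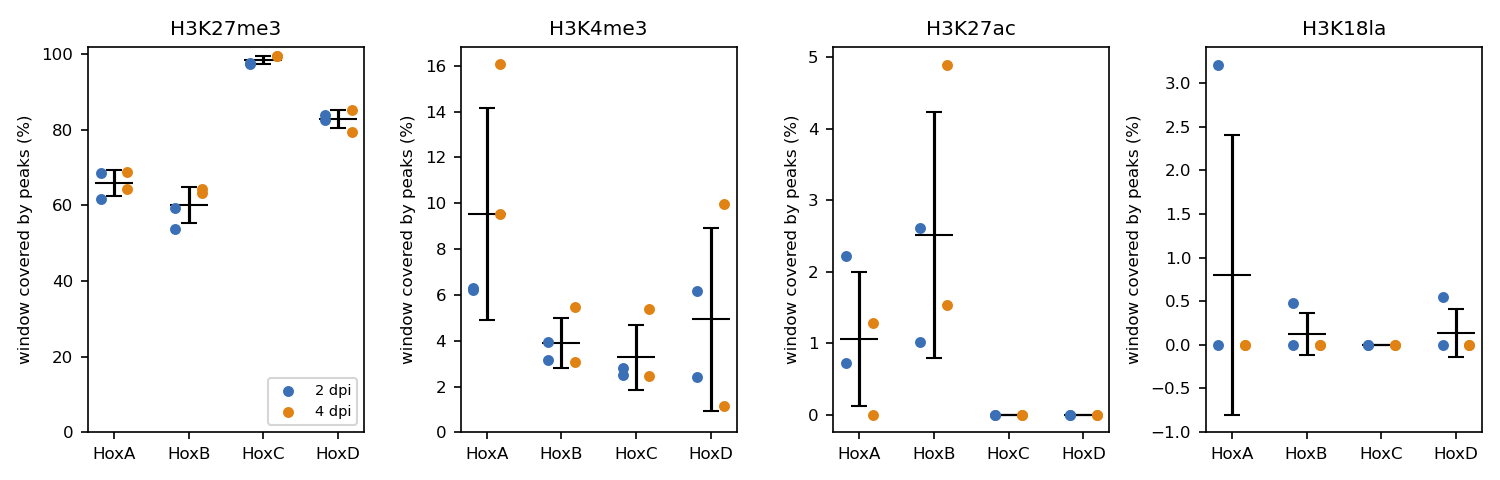
Percent of each Hox window covered by peaks, one panel per mark with its own linear axis. Points are single libraries at 2 dpi (blue) and 4 dpi (orange), and the black bars give mean and SD of 4 libraries, such as 98.5% ± 1.11 for H3K27me3 in HoxC.

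The H3K27me3 domains of the Hox clusters were among the longest peaks of each list. In HoxC a single peak measured 71.3 and 92.3 kb at 2 dpi, each the 4th longest peak of its library, and 128.7 and 130.5 kb at 4 dpi, the 3rd and the 2nd longest. At 4 dpi these peaks began at 10.5 and 10.4 kb, ran past the high-coordinate end of the window and lay over the rest of HoxC without a break. The 9 members from Hoxc13 to Hoxc4 span 115.7 kb on GRCm38. The longest HoxA peak measured 26.999 and 38.417 kb at 2 dpi and 53.7 and 53.5 kb at 4 dpi, and the longest HoxB peak 40.6 and 44.6 kb at 2 dpi and 45.6 and 61.0 kb at 4 dpi. In these 3 clusters both 4 dpi values lay above both 2 dpi values. The same held for the median H3K27me3 peak width of the whole lists. It was 2924 and 3477 bp at 2 dpi and 3602 and 3788 bp at 4 dpi. The longest peak of each list measured 92.0 and 163.4 kb at 2 dpi and 183.3 and 182.4 kb at 4 dpi. The part of this in the Hox values was not tested. The longest Hox peak was also not the same domain throughout. In HoxB the 44.6 and 45.6 kb peaks began below the window, and the 40.6 and 61.0 kb peaks lay within it. The 38.417 kb peak of HoxA lay beyond the 53.7 kb one, whose stretch was split by a short break in both 2 dpi libraries. That stretch, chr6:52183381-52237314, was covered over 52.7 and 52.9 kb at 2 dpi and 53.7 and 53.5 kb at 4 dpi, and the HoxC stretch over 125.4 and 125.1 kb and then 128.7 and 130.5 kb. The covered length thus differed far less than the length of a single peak. HoxD went against this, with 53.1 and 57.0 kb at 2 dpi and 57.1 and 25.8 kb at 4 dpi, where replicate 2 had its domain split at 92.8 to 95.3 kb.

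**Figure D3:**
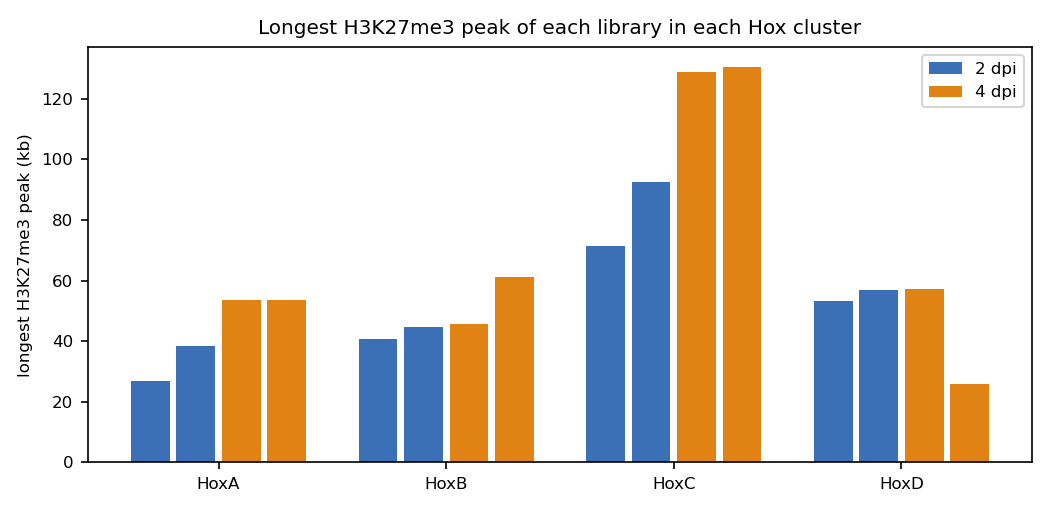
Length in kb of the longest H3K27me3 peak overlapping each Hox window, 1 bar per library, at 2 dpi (blue) and 4 dpi (orange), replicate 1 left of replicate 2. Lengths are of whole peaks, with any part outside the window, and bars of a cluster can stand for different domains. HoxC reaches 130.5 kb at 4 dpi and HoxD falls to 25.8 kb in 1 of the 4 dpi libraries.

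In signal, too, these domains stood high. The strongest H3K27me3 peak of HoxC lay at percentiles 99.96 to 99.98 of total signal in its list, and that of HoxA at 99.59 to 99.93. Among regions called in all 4 libraries, the HoxC region chr15:102830424-102960931 had mean percentiles of 99.95 at 2 dpi and 99.96 at 4 dpi. Not every Hox region ranked that high. The 3.83 kb HoxB region chr11:96229262-96233086 had mean percentiles of 15.8 at 2 dpi and 9.59 at 4 dpi. Total signal is summed over a peak and so grows with its length. The windows held 0.843 and 0.755% of all H3K27me3 peak bases at 2 dpi and 0.597 and 0.568% at 4 dpi. These shares did not overlap between time points, while the length covered inside the windows went from 439 and 461 kb to 476 and 460 kb.

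Some stretches between the domains were covered in no H3K27me3 library. Such gaps are shared by definition, and the domain ends beside them could differ between libraries. Stretches of at least 1 kb that no H3K27me3 library covered, with the ends of the windows left out, numbered 2 in HoxA, 5 in HoxB and 0 in HoxC and HoxD. HoxA had gaps of 19.7 kb at chr6:52145221-52164958 and of 15.3 kb at chr6:52168117-52183380. Between them a short island at about 45 to 48 kb was called in 3 of 4 libraries, and 2 dpi replicate 1 lacked it.

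HoxB had the longest shared gap, 31.0 kb at chr11:96101186-96132137, and one of 22.3 kb at chr11:96206966-96229261. The 3 others, of 1.60, 1.96 and 5.31 kb, lay at chr11:96136066-96137668, chr11:96200027-96201982 and chr11:96233087-96238392. Together they made 62.1 kb. Past the 31.0 kb gap, H3K27me3 began again at 70.2 and 69.2 kb at 2 dpi and at 62.6 and 62.1 kb at 4 dpi. The 1.96 and 22.3 kb gaps were parted only by an H3K27me3 peak of 4 dpi replicate 1. A stretch of 30.0 kb there, chr11:96199318-96229355, was covered by at most 1 of 4 libraries. On GRCm38 the interval between Hoxb13 and Hoxb9 is by far the widest between neighbouring members of HoxB, at 74.7 kb. HoxC had just 0.714 kb that no library covered. HoxD had 18.5 kb covered by no library, of which 3.41 kb lay at the low and 13.0 kb at the high end of the window. In HoxD the breaks within the domain were short in every library, none above 2.47 kb.

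H3K27me3 reached beyond some windows and stopped at others. In the 100 kb above the HoxC window, past the Hoxc4 end, it covered 57.8 and 74.2% at 2 dpi and 85.8 and 88.1% at 4 dpi, against 5.21 to 10.5% in the 100 kb below. Above HoxA, past the Hoxa13 end, it covered 44.9 to 53.5%, and below 15.1 to 24.3%. HoxD had little on either side, 7.63 to 17.2% below and 4.30 to 12.9% above. Below HoxB it covered 18.2 and 24.2% at 2 dpi and 31.1 and 26.1% at 4 dpi. Above HoxB it covered 14.7 and 19.1% at 2 dpi and 29.4 and 31.0% at 4 dpi.

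H3K4me3 peaks of the Hox windows lay within H3K27me3 about as much as the windows did. Of the bases in H3K4me3 peaks of the windows, 71.6 and 65.9% at 2 dpi and 78.8 and 64.2% at 4 dpi were covered by at least 3 of the 4 H3K27me3 libraries. That many libraries covered 74.1% of the windows themselves, a value within the range of the 4 shares. In the rest of the genome the share was 9.05 to 10.5%. H3K4me3 regions called in all 4 libraries numbered 8 in the windows, and 5 of them overlapped an H3K27me3 region called in all 4, against 10.6% of 13298 such regions over the genome. As the windows are mostly H3K27me3, this count is not a result about H3K4me3. Whether both marks sit on the same nucleosomes or in different cells cannot be told apart in bulk lists.

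Taking 50% of a peak's length as the divide, 37 of the 51 Hox H3K4me3 peaks lay mostly inside H3K27me3 and 14 mostly outside. Those inside ranked low, with median percentiles of total signal of 20.8 and 19.2 at 2 dpi and 17.8 and 18.5 at 4 dpi. Those outside had medians of 46.6, 54.0, 47.8 and 36.0 in the same order. The outside median was the higher one in 4 of 4 libraries, but the ranges overlapped, from 1.18 to 79.9 inside and from 7.34 to 86.2 outside. The outside peaks were neighbouring HoxB peaks at 131 to 141 kb in every library. In both 4 dpi libraries a HoxA peak within 48.8 to 50.3 kb was added to them. The contrast thus sets mainly a single HoxB stretch, seen again in each library, against the other places. Places inside that at least 3 libraries shared were in HoxC at 54.1 to 56.6 and 64.8 to 68.3 kb, in HoxD at 21.5 to 23.3 and 36.8 to 42.1 kb, and in HoxA at 13.2 to 18.3, 68.2 to 71.2 and 74.0 to 80.2 kb. Both 4 dpi libraries and neither 2 dpi library had a peak in HoxC at 51.7 to 53.3 kb and in HoxA at 118.1 to 120.8 kb. Another 7 peaks were each called in a single library, 4 in HoxD, 2 in HoxB and 1 in HoxA, and 5 of the 7 belonged to H3K4me3 4 dpi replicate 1. Of all the inside peaks, the highest in each library was the HoxA peak at 13 to 18 kb, which lay inside by 63.0 to 75.1% of its length.

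**Figure D4:**
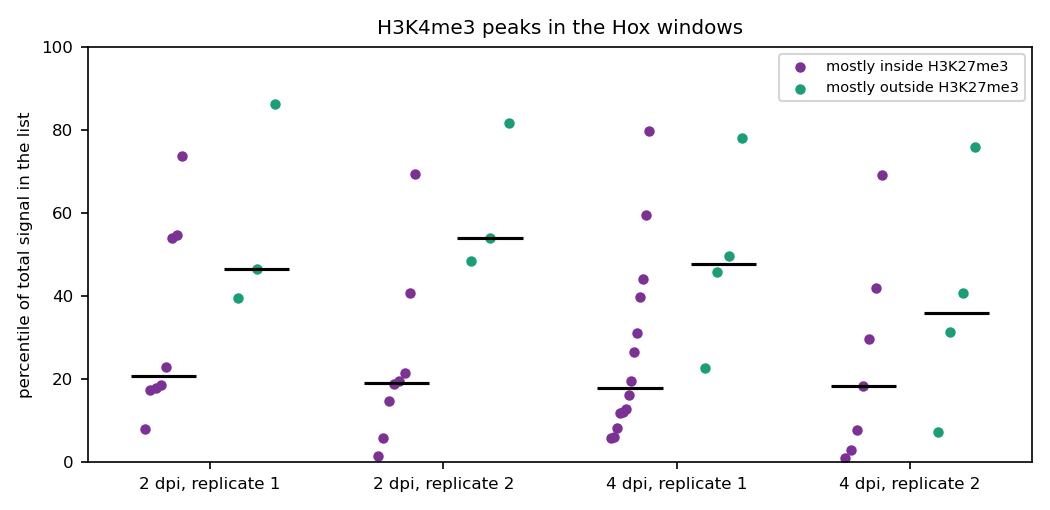
Percentile of total signal within the H3K4me3 list for each Hox peak, by library, with peaks mostly inside H3K27me3 in purple and mostly outside in green and black lines at the medians. The inside medians lie at 17.8 to 20.8 and the outside medians at 36.0 to 54.0. The outside peaks are those of HoxB at 131 to 141 kb and, at 4 dpi, also a HoxA peak.

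A stretch of HoxB without H3K27me3 in most libraries carried the active marks. Between 131 and 141 kb of the window, 3 H3K4me3 peaks were called in every one of the 4 libraries. The strongest, at chr11:96208383-96211157, had percentiles of 86.2 and 81.7 at 2 dpi and 78.0 and 75.8 at 4 dpi in its list, the highest of any Hox peak of this mark in 3 of the 4 libraries. In 4 dpi replicate 1 the HoxA peak was higher, at 79.9. H3K27ac peaks met it in 4 of 4 libraries, at percentiles 71.2 and 73.7 at 2 dpi and 86.3 and 68.6 at 4 dpi. The highest of these is the 9.79 kb peak of the library with broad peaks. An H3K18la peak of 0.968 kb lay there in 2 dpi replicate 1 alone, at percentile 21.4. The only H3K27me3 call within the stretch was a peak at 132.0 to 137.0 kb in 4 dpi replicate 1.

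The second active place was in HoxA, at 13 to 18 kb from the low-coordinate end of the window, which is the Hoxa2 end by gene order. H3K4me3 was called there in 4 of 4 libraries at percentiles 73.8 and 69.4 at 2 dpi and 79.9 and 69.2 at 4 dpi. H3K27ac was called in 3 of 4 libraries, with percentiles of 43.9 and 12.5 for a pair of peaks and 33.0 at 2 dpi, and 33.2 in 4 dpi replicate 2. H3K18la was called by 2 peaks in 2 dpi replicate 1, at percentiles 68.1 and 65.0. H3K27me3 broke here as well: 1.03 kb at chr6:52135495-52136524 was covered by at most 1 of 4 libraries, and H3K4me3 lay across all of it.

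Apart from these 2 places, no gap held H3K27ac or H3K18la. The 19.7 kb gap of HoxA and the 31.0 kb gap of HoxB had no peak of H3K4me3, H3K27ac or H3K18la in any library. The 15.3 kb gap of HoxA had an H3K4me3 peak at 48.8 to 50.3 kb in both 4 dpi libraries and neither 2 dpi library, at percentiles 22.8 and 7.34. HoxC and HoxD had no H3K27ac peak in any library. In HoxD, H3K18la was called once, by a peak of 0.798 kb at 65.0 to 65.8 kb in 2 dpi replicate 1. The other 3 H3K18la libraries had no peak in any of the 4 windows.

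To ask what changed as macrophages moved from 2 to 4 dpi, coverage was compared first. Over the 4 windows H3K27me3 coverage differed by 2.91 percentage points, 4 minus 2 dpi, with overlapping groups (2-sided exact permutation p = 0.667, n = 2 and 2, where the smallest possible p is 0.333). In HoxB it was higher by 7.26 points and in HoxC by 1.93 points, with both 4 dpi libraries above both 2 dpi libraries (exact permutation p = 0.333 each, n = 2 and 2). In HoxA the difference was 1.44 points and in HoxD -0.87 points, with overlap in both. The whole lists covered more at 4 dpi as well, and the part of that in the HoxB and HoxC values was not tested.

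Counted in 1 kb bins, of which a bin was covered when at least 500 bp lay in peaks, the H3K27me3 domains of the Hox windows were much the same at both times. Of 489 bins covered in any library, 427 were covered in all 4 (87.3%), against 39.4% over the genome. HoxC had 131 of 135, HoxD 114 of 127, HoxA 78 of 91 and HoxB 104 of 136. Bins covered in both 4 dpi and neither 2 dpi library numbered 5 (1.02%), against 10.5% over the genome, and the reverse was seen in 2 bins (0.409%), against 0.73%. Of the 5 gained, 4 lay in HoxB, 3 of them at chr11:96133001-96136000 as a new island between 2 gaps, and 1 at the high end of HoxC. The bins lost were 1 in HoxA and 1 in HoxD. A window already covered at 2 dpi leaves few bins to gain. The gains rest on which libraries are compared: without 2 dpi replicate 2 they numbered 19, without 2 dpi replicate 1 they numbered 11 and without 4 dpi replicate 2 they numbered 18, since fewer libraries must then share a state. The lost bins numbered 4 without either 2 dpi library and 6 without 4 dpi replicate 1.

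H3K4me3 bins were fewer and less shared. Of 56 bins covered in any library, 16 were covered in all 4 (28.6%), against 47% over the genome. At 4 dpi 6 bins were gained (10.7%), against 6.73% over the genome, and 0 were lost, against 1.18%. The gains were 3 in HoxA, at 49 to 50 and 118 to 120 kb, 2 in HoxC, and 1 in HoxB. H3K4me3 coverage of HoxA was 6.21 and 6.32% at 2 dpi and 16.1 and 9.53% at 4 dpi, without overlap (exact permutation p = 0.333, n = 2 and 2). The highest value belongs to the 4 dpi library with the wider peaks. Without 4 dpi replicate 2 the gained H3K4me3 bins numbered 27, and without 2 dpi replicate 2 or 4 dpi replicate 1 the lost bins numbered 3.

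Next, regions called in all 4 libraries of a mark were compared by the rank of their total signal, turned into normal scores. The shift is the 4 minus 2 dpi difference in score. Of the 14 Hox regions of H3K27me3, limma called 0 at an adjusted p under 0.05. At that threshold 0.892% of 7515 regions over the genome rose and 0.0532% fell. An unadjusted p under 0.05 was reached by 1 of the 14, against 1153 of the 7515 over the genome. Shifts ran from -0.29 to 0.08 with a median of -0.09, beside -0.03 over all regions. Both 4 dpi ranks lay below both 2 dpi ranks in 6 of the 14, against 28.2% over the genome, and above in 0 of the 14, against 20.6%.

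The region nearest to a call was the long domain of HoxD at chr2:74536130-74596982, toward the Hoxd1 end. Its percentiles were 99.66 and 99.67 at 2 dpi and 99.47 and 99.27 at 4 dpi, so the groups did not overlap, though all 4 lie near the top of the list. Ranked by maximum instead of total signal, the region had a shift of 0.27, so the direction was not kept (limma adjusted p = 0.923, n = 2 and 2). By total signal the shift was -0.21 (SE 0.05, 95% interval -0.33 to -0.10, limma adjusted p = 0.1001, n = 2 and 2). Without H3K27me3 4 dpi replicate 1 the shift was -0.27 and passed the threshold (limma adjusted p = 0.0118, n = 2 and 1, the lone library assumed to vary like the others). The HoxC domain had a shift of 0.08 (95% interval -0.02 to 0.18, limma adjusted p = 0.392, n = 2 and 2). The widest interval was that of the 3.83 kb HoxB region at chr11:96229262-96233086, from -1.10 to 0.52.

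For H3K4me3, 0 of the 8 Hox regions passed, while over the genome 7.78% of 13298 regions rose and 8.07% fell. An unadjusted p under 0.05 was reached by 1 of the 8, against 4354 of the 13298 over the genome. That Hox region was the strongest active one of HoxB, chr11:96208383-96211157. Among the shared regions its percentiles were 80.9 and 76.0 at 2 dpi and 69.3 and 69.2 at 4 dpi, without overlap (shift -0.29, SE 0.12, limma adjusted p = 0.126, n = 2 and 2). The HoxA region at chr6:52188180-52191201 had the widest upward value, from percentiles 7.69 and 10.7 to 24.4 and 17.6 (shift 0.52, 95% interval -0.09 to 1.14, limma adjusted p = 0.224, n = 2 and 2). The HoxD region chr2:74501828-74507066 had percentiles of 40.9 and 8.83 at 2 dpi and 19.6 and 8.87 at 4 dpi, which overlap. With all libraries its shift was 0.34 by maximum signal and -0.31 by total signal (limma adjusted p = 0.697 and 0.587, n = 2 and 2). Without 2 dpi replicate 2, the lower of the 2 dpi values, its shift was -0.84 and passed (limma adjusted p = 0.0110, n = 1 and 2).

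**Figure D5:**
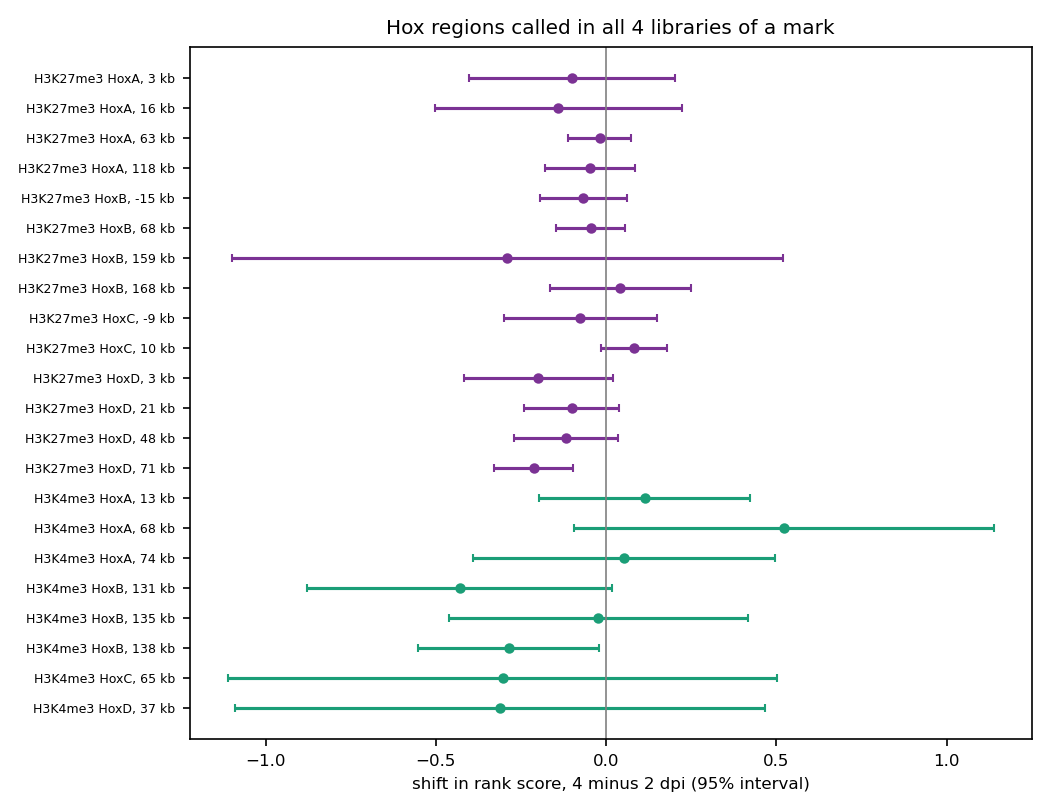
Shift in rank score, 4 minus 2 dpi, of the 14 H3K27me3 (purple) and 8 H3K4me3 (green) regions of the Hox windows called in all 4 libraries, with 95% intervals from limma. Labels give the cluster and the region's start in kb from the low-coordinate end of the window, and the HoxD domain at 71 kb has the shift of -0.21.

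H3K27ac had a single Hox region in all 4 libraries, chr11:96201578-96211840 of HoxB. Its percentiles were 62.6 and 50.2 at 2 dpi and 67.4 and 34.1 at 4 dpi, with overlap (shift -0.14, 95% interval -0.92 to 0.64, limma adjusted p = 0.879, n = 2 and 2). H3K18la had none.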

How the data were processed

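CUT&Tag peak lists of 16 libraries from sorted macrophages were used, 4 marks at 2 and 4 dpi with 2 libraries each, grouped by the labels. Per the submitters' processing notes, reads were handled with Trim Galore 0.6.6, Bowtie2 2.4.4, SAMtools 1.13 and bedtools 2.30. The authors called peaks per library with SEACR 1.3 in stringent mode at 0.01. The deposited signal is the coverage summed over a peak and its maximum, without normalization between libraries, so values were ranked within a list only. Longer lists cover more. Read depth is unknown, and intervals that rest on it were left out.

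The labels give GRCm39, which fits the contig names and chromosome ends of the lists, although the study's methods name mm10 for alignment. The reference at hand was GRCm38, and nothing was converted. The planned counts of marked Hox promoters, gene lists and cell type markers were therefore not run, so the macrophage label was not checked against markers. RefSeq gave gene order and sequences. For H3K27me3 at 4 dpi the list names number the replicates the other way round, and the labels were followed. Peaks on 21 chromosomes were used. No blacklist filter was applied here.

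Coverage, gaps of at least 1000 bp and bins of 1000 bp were computed with Python 3.11.15, and coverage was compared by 2-sided exact permutation tests. Peaks of a mark that overlapped by 1 bp were merged, and regions called in all 4 libraries were tested with limma 3.58.1 (R 4.3.3, trended robust variance) over all regions, with Benjamini-Hochberg adjustment. The script was tested on simulated data. Alternatives were stricter or equal lists, wider windows or merging, other scales, a replicate block and leaving out each library. Members and lists were chosen with earlier results of these data known, and bins, shared gaps and H3K4me3 inside H3K27me3 were added after seeing the lists. All 38 genes were named by cluster, with values for those with a promoter sequence that lie at cluster ends or at the extremes of CpG content. The latter were picked after their values were seen.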

Additional observations from a re-analysis of the deposited data

Results flagged for a closer look

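Of 17 sets of 4 libraries, each a mark in 1 window or in all 4, 6 had a library whose gap to the others was large against the whole range. Chance alone gives this in about 1 in 20 sets, and sets of a mark share libraries. That rate does not hold for the 4 H3K18la sets, where any value above 0 in 1 library stands apart. H3K18la 2 dpi replicate 1 accounts for 4 of the 6, with 3.21% of HoxA, 0.484% of HoxB, 0.550% of HoxD and 0.974% of all windows covered where the other 3 libraries had 0. It is the longest list of its mark. H3K4me3 4 dpi replicate 1 accounts for the other 2, with 5.38% of HoxC and 8.78% of all windows covered. It is the H3K4me3 list with the widest peaks. The part of list length or peak width in these values was not tested.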

How the results depend on the processing

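Of 90 recomputed values, 76 kept their direction and stayed on their side of the threshold or, for counts, within 1.5 times, and 14 counts moved further. The 76 include the coverage differences under replicate blocks, which could not differ from the main value. The 3 differences in coverage between H3K27me3 and another mark passed under every alternative, from 63.6 to 76.1 percentage points, and the 4 minus 2 dpi difference stayed between 1.16 and 4.66 points. Leaving out 1 library gave 7 to 19 gained and 2 to 6 lost H3K27me3 bins, 6 to 27 gained and 0 to 3 lost H3K4me3 bins, and 0 to 1 changed Hox regions for each of H3K27me3 and H3K4me3. When 1 bp sufficed to cover a bin, 0 H3K27me3 bins were lost. Shared gaps numbered 7 to 10. Depth is unknown, so a missing peak does not show that a mark is absent.

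Whether replicate numbers pair libraries could not be told. Deviations of same-numbered libraries were weakly correlated (H3K4me3 -0.003, H3K27me3 -0.05, H3K18la -0.065, H3K27ac 0.086). A weak correlation cannot decide whether such libraries share mice, and sharing was not tested. With a replicate block, limma called more risen regions over the genome: 187 against 67 of H3K27me3 and 1202 against 1035 of H3K4me3. A mean of paired differences equals the unpaired one, so the block left the coverage difference at 2.91 points by construction. Pairs by label number differed by 5.98 points for number 1 and -0.163 for number 2. With the block limma called 0 Hox regions in either mark. With the 4 dpi numbers of the H3K27me3 list names instead, an alternative chosen after seeing the data, the pairs differed by 3.34 and 2.48 points, and the block called 1 Hox region, the HoxD domain. The planned counts of Hox promoters under other windows and overlaps were not run for want of GRCm39 gene starts.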
